A study of Mus musculus with 5 samples.

Results

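Slit, Robo, netrin, Dcc and Unc5 genes encode the main ligand and receptor families of axon guidance, and the regions of the Pou4f1 CUT&Tag table at 10 of these genes are described here. The genes were the ligands Slit1, Slit2, Slit3 and Ntn1 and the receptors Robo1, Robo2, Robo3, Dcc, Unc5c and Unc5d. A row of the table was a member when it overlapped the annotated body of one of these genes (GENCODE M21, mm10) or lay within 20 kb of it. This rule used position alone and found 14 of the 8038 regions. CUT&Tag maps a chromatin protein through an antibody that brings a transposase to the bound DNA, so that only DNA near the protein is tagged and amplified. The libraries came from wildtype mouse retina at E16.5, with 4 retinas pooled and dissociated per preparation. There were 2 libraries with rabbit anti-Pou4f1, 2 with rabbit IgG and 1 with rabbit anti-H3K9AC, and the last was not analysed here. Of the control columns, 1 is named IgG and 1 is named as a negative control, which was taken as IgG because rabbit IgG is the negative control of the study.

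Slits are secreted proteins that bind Robo receptors on the growth cone and mostly repel it. Netrin-1, the product of Ntn1, attracts axons through Dcc and repels them where Unc5 receptors are present. In the developing retina, netrin-1 at the optic disc helps axons of retinal ganglion cells (RGCs) into the optic nerve, and Slits with Robo receptors keep RGC axons on their course within the retina and at the chiasm. Pou4f1 is a POU homeodomain transcription factor of differentiated RGCs. Only part of the retinal cells make it, and in pooled tissue fewer bound cells and weaker binding per cell cannot be told apart.

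The 14 regions fell at 7 of the 10 genes. Robo2 had 4 regions, Slit1, Slit3, Robo1 and Unc5c had 2 each, and Slit2 and Ntn1 had 1 each. No region lay within 20 kb of Robo3, Dcc or Unc5d. Regions were numbered from the 5′ end of each gene, so that Robo2 3 comes after Robo2 2 along the strand of Robo2. A region was placed at a start when its midpoint lay within 1 kb of an annotated transcript start, and otherwise in an exon, an intron or between genes. By this rule 4 member regions lay at a start, 8 in an intron, 1 in an exon and 1 between genes.

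The central 200 bases of Robo2 3, Robo2 4 and Robo1 1 are shown, since these 3 had the highest mean Pou4f1 signal of the receptor regions and lay away from a start. They were read from GRCm38 on the strand of the gene. Capitals mark ATCAATA or CTAATG on either strand, short AT-rich elements that were picked after these sequences had been seen. Robo2 3 and Robo2 4 lie in the second intron of Robo2. Robo1 1 lies upstream of the nearest coding start of Robo1, in the only intron of a further Robo1 transcript.
Robo2 3, chr16:74244375-74244574, minus strand: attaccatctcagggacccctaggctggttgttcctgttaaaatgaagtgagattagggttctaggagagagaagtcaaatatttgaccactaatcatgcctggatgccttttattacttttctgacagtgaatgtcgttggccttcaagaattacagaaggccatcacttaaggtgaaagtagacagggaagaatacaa
Robo2 4, chr16:74216976-74217175, minus strand: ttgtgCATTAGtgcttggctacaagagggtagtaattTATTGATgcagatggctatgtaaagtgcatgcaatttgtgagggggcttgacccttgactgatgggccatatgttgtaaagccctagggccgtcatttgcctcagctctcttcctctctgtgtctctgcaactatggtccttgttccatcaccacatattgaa
Robo1 1, chr16:72531459-72531658, plus strand: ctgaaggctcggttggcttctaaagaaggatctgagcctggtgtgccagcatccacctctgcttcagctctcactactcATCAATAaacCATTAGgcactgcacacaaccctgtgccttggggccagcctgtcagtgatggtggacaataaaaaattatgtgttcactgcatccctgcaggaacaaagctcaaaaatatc
Each of these windows held 1 CpG, and their G and C content ran from 41.0% in Robo2 3 to 48.5% in Robo1 1.

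Start regions looked different. The 150 bases before the 5′ end of Robo2 and of Unc5c are shown for contrast, with each CpG in capitals.
Robo2, chr16:74411826-74411975, minus strand: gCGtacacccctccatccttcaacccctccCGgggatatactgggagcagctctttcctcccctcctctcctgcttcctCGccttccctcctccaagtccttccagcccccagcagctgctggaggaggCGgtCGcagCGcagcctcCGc
Unc5c, chr3:141465066-141465215, plus strand: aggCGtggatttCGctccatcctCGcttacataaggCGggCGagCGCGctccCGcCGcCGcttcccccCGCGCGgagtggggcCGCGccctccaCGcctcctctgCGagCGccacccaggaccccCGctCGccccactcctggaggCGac
The Robo2 stretch held 7 CpGs and the Unc5c stretch 21, at a G and C content of 66.0% and 74.7%.

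The POU motif searched was ATNAATNAT, on both strands, the core shared by sites of Pou4 factors. It was absent from the central 200 bases of the member regions (0 of 14, which allows a share of up to 23.2% by the exact binomial 95% interval). The share was 8.07% over the 8028 regions on chromosomes, 1.32% at starts and 20.1% away from them. Over whole regions 3 of 14 held it (Slit3 1, Robo2 1 and Robo2 2), against 21.7% of all regions. Away from a start 2 of 10 member regions held it over their whole length, against 47.9% of all such regions. At a start 1 of 4 did, against 7.01%. The matches are shown in capitals with 10 bases on each side.
Slit3 1, chr11:35454899-35454907, minus strand: atccattttgATCAATAATttcacctcca
Slit3 1, chr11:35454934-35454942, plus strand: catgaacctcATGAATTATtcatgggctg
Slit3 1, chr11:35454938-35454946, minus strand: tatacagcccATGAATAATtcatgaggtt
Robo2 1, chr16:74412279-74412287, minus strand: agacggagcgATGAATAATtaggaagggc
Robo2 2, chr16:74347985-74347993, plus strand: tctgtgacctATAAATAATgcagagccct
The last 2 matches of Slit3 1 overlap on opposite strands. These sites lay 252 to 553 bp from the midpoints of their regions. The stricter Pou4 consensus matched in Slit3 1 and Robo2 1 but in no central window. Among related elements, the octamer ATGCAAAT occurred in 1 whole region (Robo2 4) and the homeodomain core TAATTA in 1 central window (Robo2 2), against 3.64% and 3.49% of all regions in the same windows. ATCAATA stood in the central window of 3 of 14 (Slit1 1, Robo1 1 and Robo2 4), with 1.87% of all regions and 4.27% of those away from a start as background. CTAATG stood in 3 central windows (Robo1 1, Robo2 4 and Unc5c 1), against 4.96% of all regions, 2.16% at starts and 9.96% away from them. ATCAATA is part of the first Slit3 1 match of the POU motif, and TAATTA overlaps the match in Robo2 1. ATCAATA and CTAATG were chosen from the member sequences themselves, so their counts describe those sequences and were not tested.

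The values of the table are signal, not read counts. The signal of a region times its length was a whole multiple of a step fixed for each library, within 0.05 of a step, for 99.99% of values or more in each library, so that the multiple can be read as covered bases. In both IgG libraries the commonest value above 0 was 160 covered bases, close to the 150 bases of 1 pair of 75-base reads. By this reading no member region held over 320 covered bases in an IgG library, and 4 held none in either. The scaling between libraries is not stated in the sources used here. The regions had been called as enriched by the study itself, so a signal above IgG was part of how a row entered the table.

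**Figure D1:**
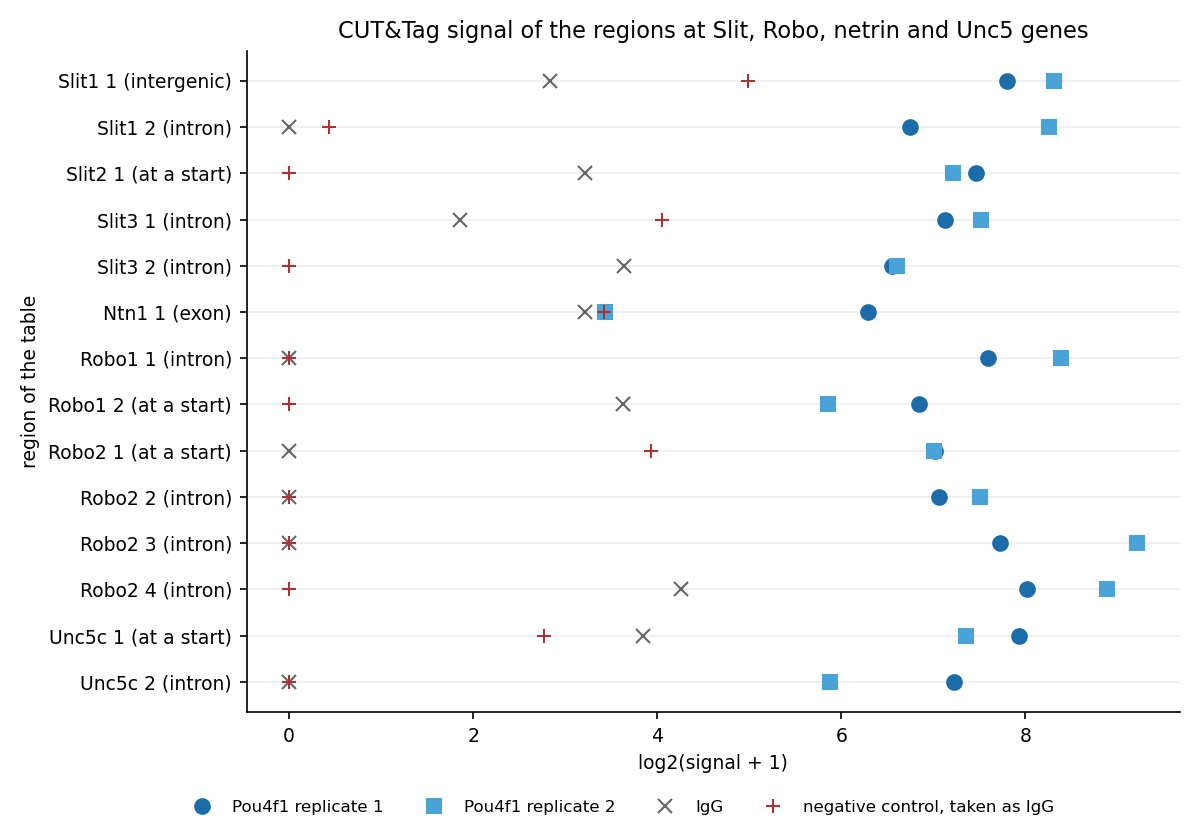
Signal of the 14 member regions in each library as log2(signal + 1), with a marker for each library and the class of the region in brackets. Both Pou4f1 markers lie to the right of both IgG markers in each row, and in Ntn1 1 replicate 2 (signal 9.78) nearly coincides with the negative control (9.68).

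Of the 14 member regions, 9 had a signal higher in Pou4f1 than in IgG at an adjusted p under 0.05 (limma on log2(signal + 1), 2 libraries against 2, Benjamini-Hochberg over 8038 regions), and 0 were lower. Over all regions 64.8% were higher and 0.224% lower, so the members' share lay near the background. Both Pou4f1 libraries stood above both IgG libraries in 14 of 14 member regions, against 96.5% of all regions. The median difference in log2(signal + 1) was 5.39 for the members and 5.22 for the table. An exact permutation test of 2 against 2 cannot go below p = 0.333, so single regions rest on the spread that limma shares across regions. Leaving out a library changed the count of 9 to 5 without Pou4f1 replicate 1, 6 without replicate 2, 13 without the library named IgG and 14 without the negative control, while the share higher over all regions became 29.4%, 30.9%, 94.4% and 95.9%. In these fits 1 group is a single library, assumed to vary like the other group. The 4 regions with no signal in either control (Robo1 1, Robo2 2, Robo2 3 and Unc5c 2) passed under each alternative run, but scaling or leaving out a control at 0 cannot move their difference, so this says little of their stability. Each other region that passed lost its call under at least 1 alternative.

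Slit1 had a region on each side of its 5′ end. Slit1 1 (chr19:41746271-41747198) lay between genes, 3070 bp upstream of the start of Slit1, and the closest start was that of the small noncoding Gm22601. Its signal was 222 and 318 in Pou4f1 replicates 1 and 2, against 6.16 in IgG and 30.7 in the negative control. The negative control value was the highest IgG value of the 14 regions and lay below both Pou4f1 values. Slit1 2 (chr19:41681365-41682877) lay 61.5 kb downstream of the 5′ end, in intron 4 of 36. It had 107 and 305 in Pou4f1 against 0 and 0.353 in the controls. Replicate 2 was 2.86 times replicate 1 here, the highest such ratio among the members. The log2 difference was 4.15 ± 0.95 (SE, adjusted p = 0.0362, limma) for Slit1 1 and 7.29 ± 0.72 (adjusted p = 0.00624, limma) for Slit1 2.

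Slit2, the ligand with the longest member region, was marked at its start and nowhere else within 20 kb. Slit2 1 (chr5:47982712-47985652, 2941 bp) held 2515 bp of annotated exon, of which 1902 bp were untranslated and 179 bp coding. Its midpoint lay 812 bp from the start of a noncoding Slit2 transcript and 1028 bp from the nearest coding start, just past the 1 kb limit for the latter. The signal was 176 and 147 in Pou4f1 against 8.30 and 0 in the controls. The log2 difference was 5.73 ± 1.33 (SE, adjusted p = 0.0370, limma). By signal times length this region stood at the 93.3rd percentile of the table, the highest of the members, while by signal it ranked 4419 of 8038.

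Slit3 had no region at a start, and both of its regions lay deep in the gene. Slit3 1 (chr11:35453475-35455303) lay 333 kb from the 5′ end, in intron 4 of 35, and holds the 3 POU motif matches shown above. Its signal was 139 and 182 in Pou4f1 against 2.63 and 15.6 in the controls. Slit3 2 (chr11:35664735-35665796) lay 544 kb from the 5′ end, in intron 26, with 92.6 and 96.2 against 11.5 and 0. The nearest start to it was that of the microRNA gene Mir218-2, at 48.4 kb. Slit3 1 passed the threshold with a log2 difference of 4.37 ± 0.95 (SE, adjusted p = 0.0336, limma), and Slit3 2 did not, at 4.75 ± 1.48 (adjusted p = 0.0609, limma).

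Ntn1 had the weakest region of the members. Ntn1 1 (chr11:68384645-68386113) lay 15.4 kb into the gene, with 1011 of its 1469 bp in coding sequence and its midpoint 1447 bp from an internal coding start. The signal was 77.4 in Pou4f1 replicate 1 but 9.78 in replicate 2, against 8.30 in IgG and 9.68 in the negative control. Replicate 2 thus lay next to the negative control, and corresponds to 235 covered bases against 160 in each control. The log2 difference of 1.54 ± 1.19 was not past the threshold (SE, adjusted p = 0.285, limma). Without Pou4f1 replicate 2 the difference was 2.97 and passed the threshold (adjusted p = 0.0396, limma), and without replicate 1 it was 0.11. Without the negative control it hardly moved, to 1.64, and passed in a fit where 95.9% of all regions did. Its direction was not stable to scaling, with -0.34 when the controls were taken as 4 times shallower and -2.31 with column totals as library sizes. The region ranked 7970 of 8038 by mean Pou4f1 signal.

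Robo1, a Slit receptor, had 1 intronic and 1 start region. Robo1 1 (chr16:72531257-72531861, 605 bp) lay 223 kb from the 5′ end of the annotated gene and 132 kb upstream of the start of its principal transcript. It was 32141 bp upstream of the nearest coding start of Robo1, and in the only intron of another Robo1 transcript. It had 192 and 334 in Pou4f1 and 0 in both controls. Robo1 2 (chr16:72662780-72664131) lay at the start of the principal transcript, with its midpoint 306.5 bp from that coding start. Its signal was 114 and 57.0 in Pou4f1 against 11.4 and 0 in the controls. The region in the intron therefore had the higher signal in both libraries, but signal is per base and the start region was longer, at 1352 bp. In covered bases the start region was higher in replicate 1 (3433 against 2584) and the intronic region in replicate 2 (3305 against 1260). The log2 difference of the intronic region was 7.99 ± 0.49 (SE, adjusted p = 0.00230, limma). The start region did not pass at 4.54 ± 1.53 (adjusted p = 0.0694, limma).

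Robo2, a Slit receptor of RGC axons, had the most regions and the 2 highest by mean Pou4f1 signal. Of 21951 protein-coding genes, 0.929% had 4 or more regions within 20 kb, without regard to length, and Robo2 is 520 kb long. Robo2 1 (chr16:74411408-74412402) lay at the 5′ end, 80 bp from the nearest start, with 129 and 128 in Pou4f1 against 0 and 14.3 in the controls. The other 3 lay in the second intron. Robo2 2 (chr16:74347764-74348717), 63.6 kb from the 5′ end, had 133 and 181 against 0 and 0. Robo2 3 (chr16:74244144-74244806), at 167 kb, had 211 and 594 against 0 and 0. Robo2 4 (chr16:74216741-74217411), at 195 kb, had 259 and 473 against 18.2 and 0. The signal was thus higher in the intron than at the start in both Pou4f1 libraries, for each of the 3 intronic regions. For Robo2 2 in replicate 1 the gap was small (133 against 129). In covered bases the start was there just above it, at 2855 against 2824, while the other intronic values stayed above the start.

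Robo2 3 ranked 709 of 8038 by mean Pou4f1 signal and Robo2 4 ranked 940. Robo2 2 and Robo2 3 passed the threshold, with log2 differences of 7.29 ± 0.41 (SE, adjusted p = 0.00222, limma) and 8.47 ± 0.70 (adjusted p = 0.00402, limma). Robo2 4 missed it narrowly at 6.32 ± 1.75 (adjusted p = 0.0502, limma) and Robo2 1 at 5.05 ± 1.60 (adjusted p = 0.0621, limma). In both of these, 1 control library held 160 covered bases and the other none, so that the controls differed by more than the Pou4f1 libraries on the log2 scale.

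Robo3, which commissural axons need to cross the midline, had no region within 20 kb. The nearest lay 26.7 kb upstream of its body (chr9:37459912-37460777), between genes, with 146 and 97.8 in Pou4f1 against 0 and 0. Robo3 is also the shortest of the 10 genes at 17.6 kb.

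Dcc, the attractive netrin receptor, is 1097 kb long and had no region in its body. The nearest regions lay 636 kb and 1221 kb away on either side. Unc5d, 573 kb long, had none either, and its nearest regions lay 1386 kb and 1870 kb away. Of the 2492 protein-coding genes of at least 100 kb, 60.3% had a region within 20 kb, and of the 9 members of that length, 7 had one. A table of called regions lists what passed a caller, so no level can be given for these 3 genes.

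Unc5c, a repulsive netrin receptor, had a region at its start and one in its first intron. Unc5c 1 (chr3:141464641-141466464) lay 21.5 bp from the nearest coding start at its midpoint, with 242 and 163 in Pou4f1 against 13.4 and 5.85 in the controls. Unc5c 2 (chr3:141638065-141638828), 173 kb from the 5′ end, had 149 and 58.0 against 0 and 0. Here the start had the higher signal in both Pou4f1 libraries, the opposite order by signal to Robo1 and Robo2. Both regions passed the threshold, with log2 differences of 4.33 ± 0.61 (SE, adjusted p = 0.0135, limma) and 6.55 ± 0.65 (adjusted p = 0.00621, limma). The larger difference of the weaker region comes with controls at 0.

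**Figure D2:**
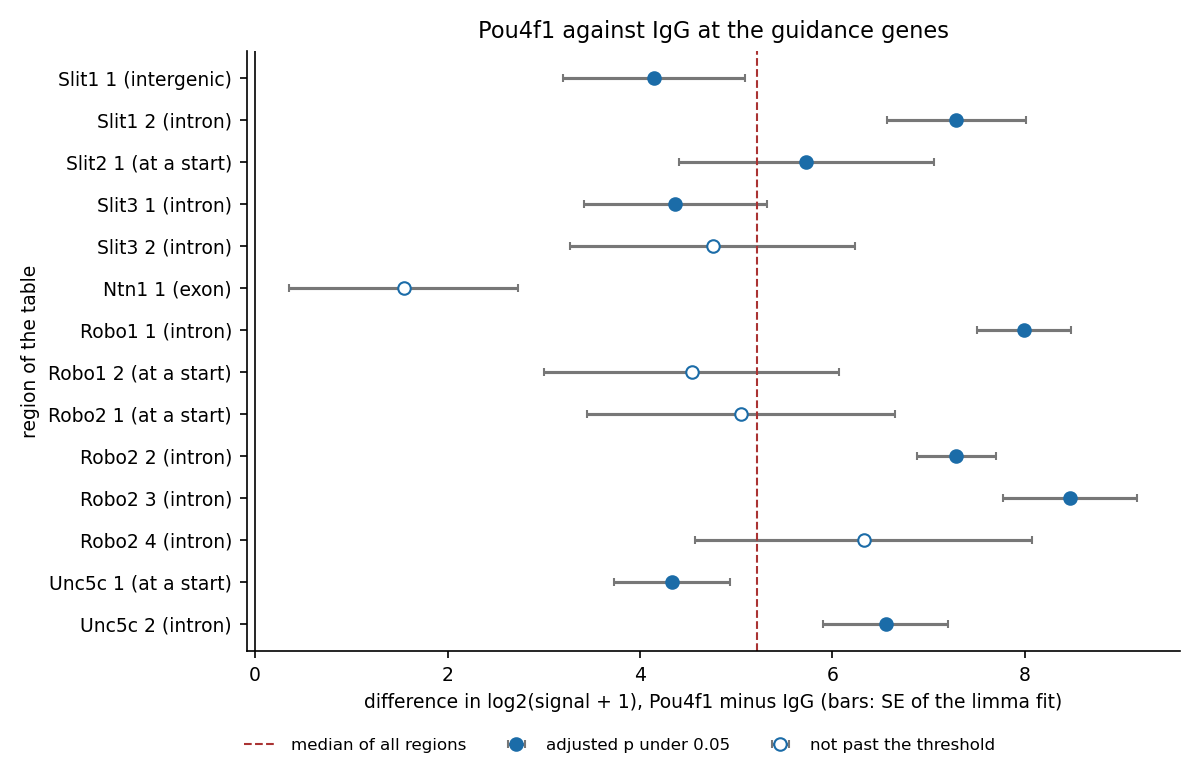
Difference in log2(signal + 1) between Pou4f1 and IgG for each member region, with the SE of the limma fit as bars, filled where the adjusted p was under 0.05. The dashed line is the median of all regions (5.22). Ntn1 1 at 1.54 is the lowest and Robo2 3 at 8.47 the highest.

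**Figure D3:**
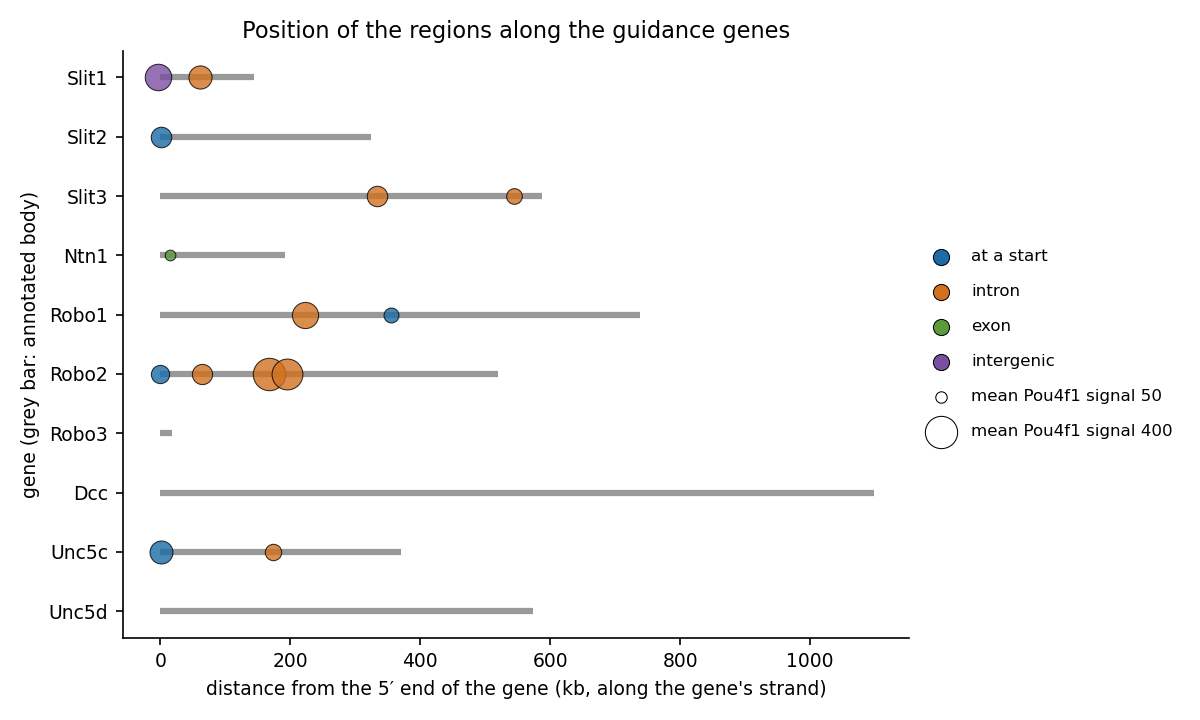
Position of each member region along its gene in kb from the 5′ end, with the gene body as a grey bar, the area of a circle proportional to the mean Pou4f1 signal and its colour for the class. The largest circles sit in the second intron of Robo2 at 167 and 195 kb, and Robo3, Dcc and Unc5d carry no circle.

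Promoter and intron regions were compared as classes. At a start lay 28.6% of the member regions and 64.1% of all regions on chromosomes, while 57.1% of the members and 18.6% of all regions were intronic. The member genes are long, and per length of their windows there were 2.82 regions per Mb against 3.05 over chromosomes 1 to 19 and X. Away from starts the density was 2.02 per Mb at the members and 1.09 over the chromosomes. Since the regions of 1 gene share its sequence and libraries, these shares are descriptions and were not tested.

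In replicate 1 the 4 start regions ran from 114 to 242 (median 152) and the 8 intronic regions from 92.6 to 259 (median 144), so the classes overlapped almost fully. In replicate 2 the start regions ran from 57.0 to 163 (median 138) and the intronic regions from 58.0 to 594 (median 244). Replicate 2 exceeded replicate 1 in 7 of 8 intronic member regions and in 0 of 4 at a start. Over the whole table the same held for 65.3% of intronic regions and 16.6% of start regions, so the order of the libraries by class was not particular to these genes. Whether intronic regions at the guidance genes were stronger than start regions therefore depended on the library. The median percentile of the members among all regions was 29.8 in replicate 1 and 55.5 in replicate 2, and 44.9 by the mean of both.

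**Figure D4:**
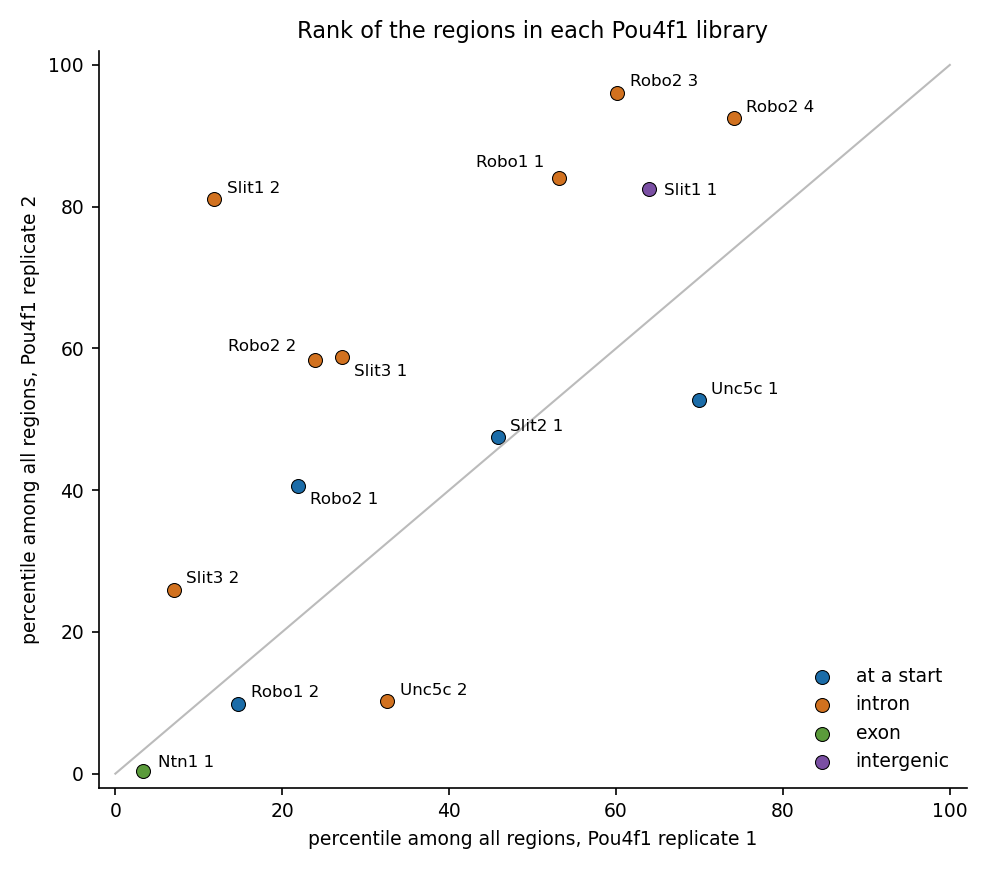
Percentile of each member region among all 8038 regions in Pou4f1 replicate 1 (x axis) and replicate 2 (y axis), coloured by class, with the line of equal percentile. Slit1 2 lies farthest above the line, at 11.9 in replicate 1 and 81.1 in replicate 2, and Unc5c 2 is the intronic region below it.

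Base composition separated the classes without overlap. The start regions had 58.7% to 62.5% G and C and a CpG ratio of 0.53 to 0.70, which is the number of CpGs observed over that expected from the bases. The intronic regions had 40.1% to 50.2% and 0.14 to 0.31. Medians over the table were 62.7% and 0.77 at starts and 48.6% and 0.23 in introns. The exonic Ntn1 1 had 65.6% and the highest CpG ratio, close to 1. The region upstream of Slit1 lay between the classes in G and C (55.2%) and with the introns in its CpG ratio (0.24). The 2 strongest regions by mean Pou4f1 signal, Robo2 3 and Robo2 4, were the poorest in G and C, at 40.1% and 42.0%. Unc5c 2 was next at 42.3%, and ranked 6599 of 8038. In replicate 1 Robo2 3 had 211, below Unc5c 1 (242, with 62.5% G and C) and Slit1 1 (222). A link of signal to base composition was not tested.

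**Figure D5:**
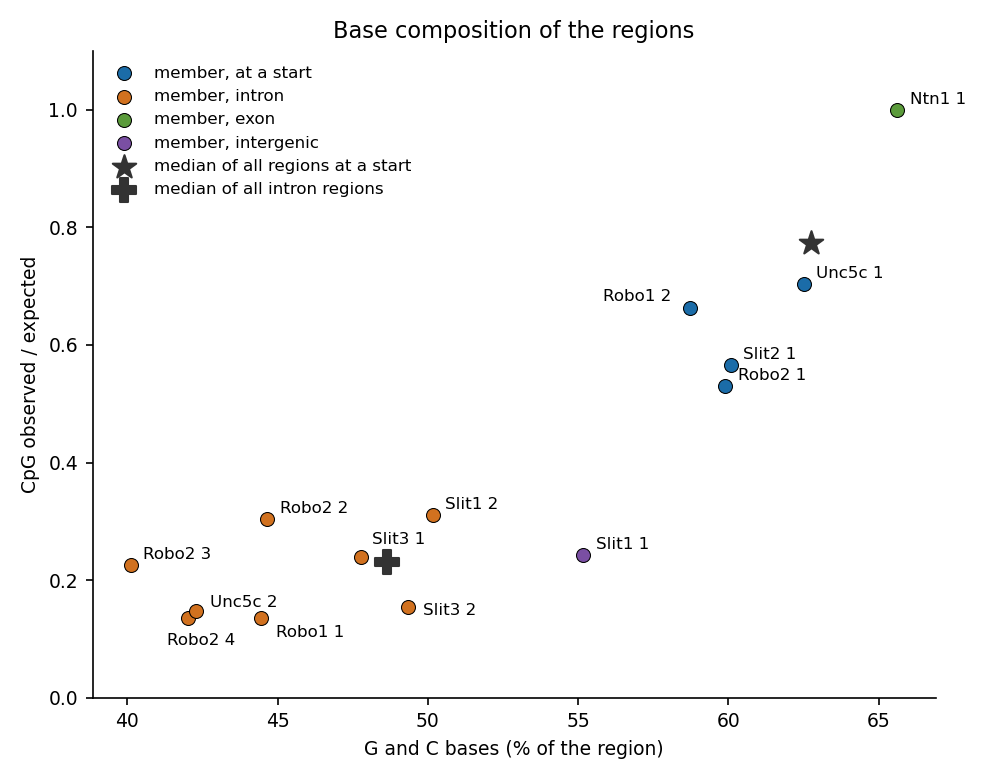
G and C content (x axis, % of the region) and CpG ratio (y axis, observed over expected) of the member regions by class, with the medians of all start regions (star) and all intronic regions (plus). Start members sit at 58.7% or more and intronic members at 50.2% or less.

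Ligand genes had 6 regions and receptor genes 8. In Pou4f1 replicate 1 the ligand regions ran from 77.4 to 222 with a median of 123, and the receptor regions from 114 to 259 with a median of 170. In replicate 2 the medians were 165 and 172, with ranges of 9.78 to 318 and 57.0 to 594. The ranges overlapped in both libraries. Within introns the receptors had the higher median signal in both, at 192 against 107 in replicate 1 and 334 against 182 in replicate 2, from 5 regions and 3 regions. Signal is per base of a region, and the receptor intron regions were shorter, with a median of 671 bp against 1513 bp. In covered bases the order of the medians was reversed, at 2824 against 3588 in replicate 1 and 3305 against 5445 in replicate 2. Of these 5 receptor regions, 3 lay in the second intron of Robo2. Unc5c 2 had 149 in replicate 1, above the highest ligand intron value of 139. In replicate 2 it had 58.0, below the lowest ligand intron value of 96.2. Of the ligand regions 4 of 6 passed the threshold and of the receptor regions 5 of 8, both near the background of 64.8%. IgG was at 0 in both controls in 4 of 8 receptor regions and in 0 of 6 ligand regions, against 22.8% of the table. All 4 were intronic, and over all intronic regions the share was 30.8%. The receptor regions were also shorter, with a median length of 859 bp against 1491 bp for the ligand regions. The higher receptor medians above are therefore of signal per base. In covered bases the ligand regions had the higher median in both Pou4f1 libraries.

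Of 53 other genes of Slit, Robo and netrin signalling, 39 had a region within 20 kb, with 64 regions in all, against 40.8% of all protein-coding genes. Of the 25 of at least 100 kb, 20 had one, against 60.3% of coding genes of that length. Of these regions 38 were higher in Pou4f1 than in IgG and 0 lower at an adjusted p under 0.05 (limma), beside the 64.8% of the table, and 36 lay at a start (56.3%). The nearest start was that of the listed gene in 24 of the 36 and that of another gene in 12. All 10 other ligands and co-ligands had a region within 20 kb, with 6 of 12 regions higher, but those of Ntn3, Ntn5 and Draxin lay at the starts of Tbc1d24, Dbp and Mad2l2, and that of Flrt1 lay nearest the start of Macrod1. Among 6 other receptors, Neo1, Dscam and Dscaml1 had regions, with 6 of 8 higher, and Robo4, Unc5a and Unc5b had none. Dag1 but not Gpc1 had one among the co-receptors, and it was higher. Of 35 cytoplasmic partners 25 had a region, with 25 of 43 higher.

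The highest of these regions lay in an intron of Nell2, a secreted ligand of Robo3, with 863 and 1106 in Pou4f1 against 0 and 39.1 in the controls. It ranked 27 of 8038, and its adjusted p of 0.0551 (limma) was not past the threshold. Next came the start of Fyn, a kinase that acts downstream of Dcc, with 742 and 603 against 0 and 23.2 (adjusted p = 0.0455, limma). The POU motif stood in the centre of 8.07% of all regions, 1.32% of those at a start and 20.1% of those away from one. Of the 64 regions here 36 lay at a start, so the last share applies to the others alone. The motif stood in the centre of 4 of the 64, all intronic. One was in Dscam, a cell adhesion receptor that also binds netrin-1, with 2 matches and a signal of 291 and 512 against 0 and 0 (adjusted p = 0.00222, limma). A pair lay in its paralog Dscaml1, with 289 and 402 against 3.44 and 0 in the first and 221 and 415 against 0 and 8.60 in the second (adjusted p = 0.0111 and 0.0311, limma). The last was another Nell2 region, with 140 and 261 against 0.201 and 0 (adjusted p = 0.00289, limma).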

How the data were processed

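The authors trimmed the read pairs, mapped these to mm10 (Bowtie2 2.4.5) and called regions with SEACR. They deposited 1 table of 8038 regions with a signal value in each of 4 libraries. Neither the pooling of replicates for calling nor the scaling of the signal is stated in the sources used here. Depth per library is therefore unknown, and intervals of shares cover counting error only.

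Starts of regions were counted from 1. Signal was tested as log2(signal + 1) with limma 3.58.1 in R 4.3.3, Pou4f1 against IgG, without scaling, covariates or a filter, adjusted by Benjamini-Hochberg over the 8038 regions and called at 0.05. The fit was tested on simulated data, where it recovered planted differences. The simulated noise was normal with the same spread in each region. Controls at 0 were not imitated, so this does not check the p-values of such regions. Sequence was read from GRCm38.p6 and genes from GENCODE M21. Python 3.11.15 with pandas 2.3.3, scipy 1.17.1 and pysam 0.24.0 did the rest.

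The members, the list of other pathway genes and the tests were chosen with earlier results of these data known. All member regions are named, and of the other pathway genes the 2 regions with the highest Pou4f1 signal and those with the motif in their centre. Alternatives were other pseudocounts, scalings of IgG, a trend of the spread, a filter on summed signal, a 2-fold threshold, each library left out, other windows around genes, other distances to a start, other motifs and other ranks. The motifs ATCAATA and CTAATG were added after the data were seen. CUT&Tag measures no RNA, so the tissue could not be checked against marker genes. The sequence of 1 region is not reported here.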

Additional observations from a re-analysis of the deposited data

How the results depend on the processing

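Between 13 (the gene body alone) and 19 (100 kb) regions were members under other windows, and 21.4% to 42.9% of members lay at a start under other distances. The 9 member regions past the threshold became 6 with a pseudocount of 0.1 and 13 with 10, 6 where IgG was scaled up by 2 and 5 where it was scaled up by 4, 4 with column totals as library sizes, 10 with a trend of the spread, and 5 to 14 with each library left out in turn. Over all regions the 5205 higher ones became 3492 and 7443 with pseudocounts of 0.1 and 10, 2949 and 2152 where IgG was scaled up by 2 and 4, 1821 with column totals, 2360 and 2484 without Pou4f1 replicate 1 or 2, and 7587 and 7710 without the library named IgG or the negative control. The median log2 difference of the members was 7.10 and 3.43 with pseudocounts of 0.1 and 10, 4.44 where IgG was scaled up by 4, 2.98 with column totals and 5.32 to 6.57 with each library left out. These scalings raise the controls by construction, and the median of all regions moved from 5.22 to 4.71, 4.20 and, with column totals, 2.74. For the other settings the cause was not tested.

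Ntn1 1 changed sign, to -0.34 where IgG was scaled up by 4 and to -2.31 with column totals, past the threshold in neither. Robo1 1, Robo2 2, Robo2 3 and Unc5c 2 passed the threshold throughout, with a highest adjusted p of 0.0144 (limma, Unc5c 2 with column totals). Their controls are at 0, so that scaling or leaving out a control alone could not move their differences. Column totals also rescale Pou4f1, and with these the differences became 7.08, 6.38, 7.56 and 5.66. Slit1 1, Slit2 1 and Slit3 1 lost it under each scaling, with a pseudocount of 0.1 and without either Pou4f1 library. Unc5c 1 lost it where IgG was scaled up by 4, with column totals and without either Pou4f1 library, and Slit1 2 with column totals. Slit3 2, Robo1 2, Robo2 1 and Robo2 4 gained it with a pseudocount of 10 and without either control library, and Robo2 4 also with a trend. Depth is not known, and no IgG value of a member region exceeds 320 covered bases. No paired analysis was possible because the control columns carry no replicate number.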
